A study of Homo sapiens with 4 samples.

Results

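Messenger RNA levels of 9 genes that form or regulate the route of metabolites and calcium across both mitochondrial membranes were followed in UBXN1-knockdown hepatocellular carcinoma (HCC) cells. They were the VDAC channel genes VDAC1, VDAC2 and VDAC3, the adenine nucleotide carrier genes SLC25A4, SLC25A5 and SLC25A6, and PPIF, TSPO and MCU. The genes were chosen by name, and their rows were taken from a table of 61541 Ensembl genes, of which 16863, including all 9, passed the filter on low counts.

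The study asked how UBXN1, a ubiquitin-binding adaptor protein, affects survival and mitochondrial homeostasis of HCC cells, and RNA-seq was done on the human HCC line MHCC97H. The 4 libraries, 2 each, came from cells with a control shRNA (shCon) or with an shRNA against UBXN1 (shUBXN1), all grown without a further treatment named in the labels. Per the study's methods the shRNAs were carried by the lentiviral vector pLKO.1, so both groups would hold an integrated vector, but the control is called shRFP there and shCon in the labels, and which UBXN1 shRNA the sequenced cells carried is not given in the sources used here. Nor do they say whether the libraries of a group came from separate cultures, so p-values measure the spread between these samples, which may be technical.

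VDAC proteins are beta-barrel pores of the outer mitochondrial membrane through which ATP, ADP, phosphate, respiratory substrates and calcium pass. Adenine nucleotide carriers of the inner membrane exchange cytosolic ADP for ATP made in the matrix. MCU is the pore of the calcium uniporter of the inner membrane, PPIF encodes cyclophilin D, a matrix prolyl isomerase that sensitizes the permeability transition pore, and TSPO is a cholesterol-binding protein of the outer membrane. VDACs and the carriers were long held to be parts of that pore, and hepatoma cells are known for hexokinase bound to VDAC.

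Library totals were 23373700 to 27380508 counts. UBXN1 was at 67.1 and 77.3 counts-per-million (CPM, with edgeR's TMM scaling) in shCon and at 16.8 and 18.5 CPM in shUBXN1. This is -2.03 on the log2 scale (SE 0.0963, adjusted p = 9.98e-10, quasi-likelihood test of edgeR, p-values adjusted by Benjamini-Hochberg over all genes tested), so the knockdown was visible in both libraries that carry its label. Of 14 hepatocyte markers, 8 reached a TPM of 1 in every library (transcripts-per-million, for which counts are divided by gene length before scaling), with KRT8 the highest. In edgeR's test 4 of the 14 were higher in shUBXN1, 7 were lower and 3 did not pass, and at a fold change of 2 there were 3 higher and 5 lower. Their summed TPM ranged from 5411 to 5460 in shCon and from 4654 to 5067 in shUBXN1, but almost all of it came from the keratins KRT8 (4047 and 4059 TPM in shCon, 2993 and 3239 in shUBXN1) and KRT18 (1283 and 1320 against 1595 and 1767), so the sum does not show the changes of the secreted and metabolic markers. Among these, named after their values were seen, ALB was at 16 and 14.8 TPM in shCon and 3.99 and 4.21 in shUBXN1, FGB at 5.43 and 5.40 against 0.481 and 0.213, and CYP2E1 at 0.200 and 0.220 against 7.82 and 7.66. Of 9 markers of immune, endothelial, stromal and red blood cells, 2 reached that level, with CD68 the highest, and CD3E had 0 counts in all libraries. Of the 4 that passed the filter on low counts 2 were higher and 1 was lower, and the sums were 109 to 114 TPM in shCon and 97.0 to 108 TPM in shUBXN1. The part of these marker differences in the results below was not tested.

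The transcripts of 3 of the 9 genes fell and that of 1 rose upon UBXN1-knockdown. Only the falls passed the threshold under every alternative setting run, whereas the rise lost its call under several. SLC25A5, the main adenine nucleotide carrier of these cells, was 1.58-fold lower, MCU was 1.54-fold lower and SLC25A6 was 1.49-fold lower, whereas PPIF was 1.17-fold higher. VDAC1, VDAC2, VDAC3, SLC25A4 and TSPO did not pass an adjusted p of 0.05. Among all genes tested 28.0% were called higher and 28.2% lower at this threshold, so that calls were common in these libraries and 1 higher and 3 lower of 9 are not set apart from that background by their number. None of the 9 genes passed a fold change of 2 with an unadjusted p under 0.05, as 17.9% of all genes did in either direction. Over the 9 genes the log2 fold changes had a median of -0.14, against 0.016 over all genes tested. In bulk RNA, fewer cells with a transcript and less of it per cell cannot be told apart.

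**Figure D1:**
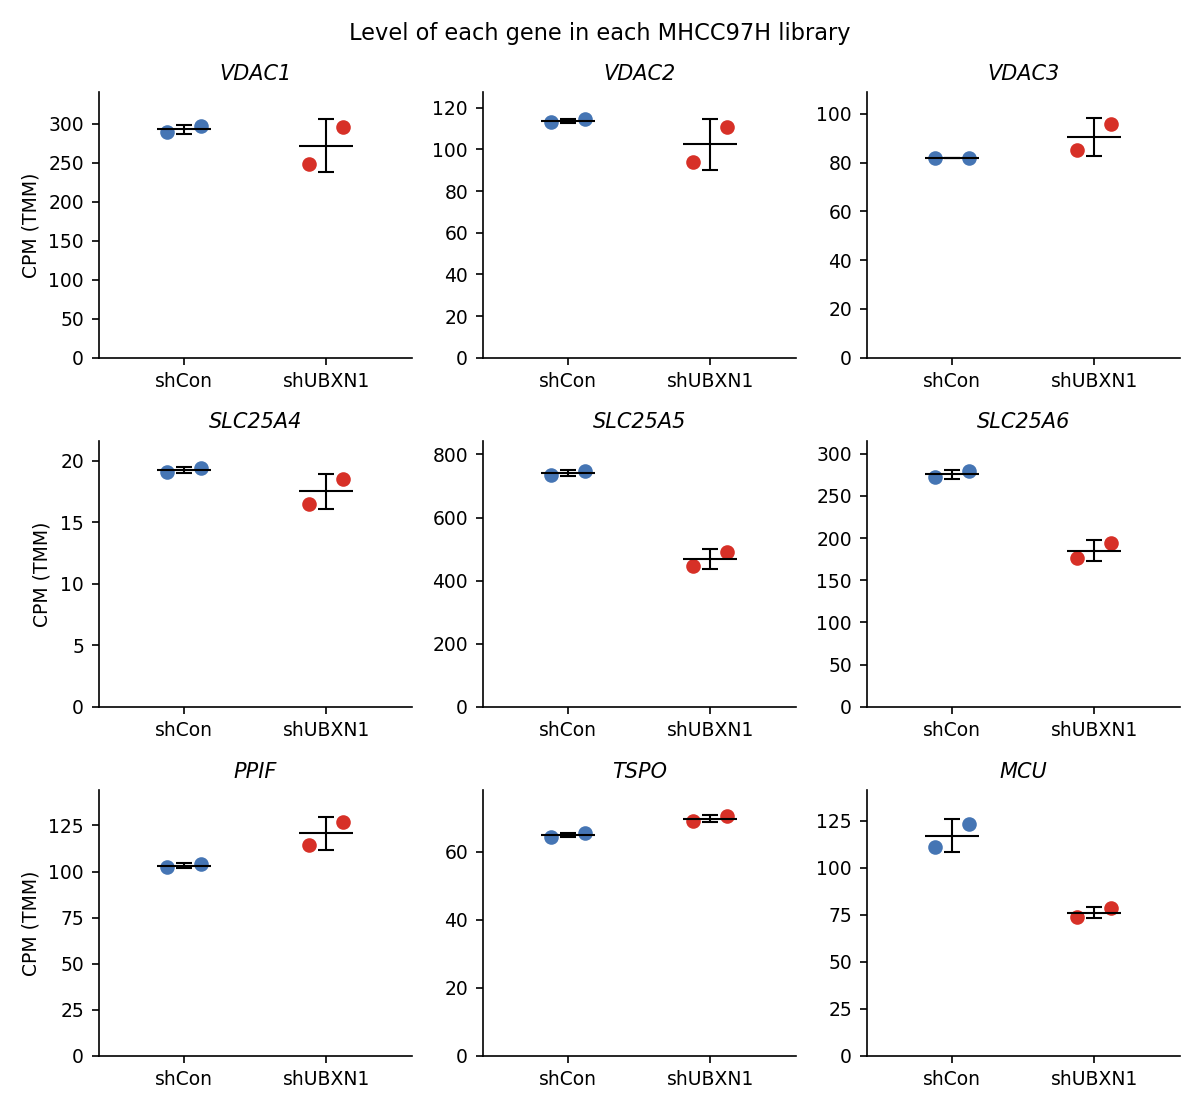
TMM-scaled CPM (vertical axes from 0) of each of the 9 genes in the 2 shCon (blue) and 2 shUBXN1 (red) libraries, with the mean as a bar and the SD as error bars. SLC25A5, SLC25A6 and MCU lie clearly lower in both shUBXN1 libraries, PPIF lies higher, and only VDAC1 has groups that overlap.

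In CPM, 5 genes had both shUBXN1 values below both shCon values and 3 had them above, which held for 38.6% and 39.4% of all genes tested. VDAC1 was the gene whose groups overlapped. All 9 genes had a higher CPM in the second shUBXN1 library than in the first, while in TPM TSPO and MCU had a lower value in the second.

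The adenine nucleotide carriers were the group with the greatest abundance. They belong to the SLC25 family and have nearly the same coding length and order of exons, but differ in tissue: SLC25A4 is best known from heart and skeletal muscle, SLC25A5 from dividing cells, and SLC25A6 is widely expressed. The coding sequences of the canonical transcripts (GENCODE v44) each have 894 bases, and 78.7% of the bases were identical between SLC25A5 and SLC25A6, 77.9% between SLC25A4 and SLC25A6 and 77.2% between SLC25A4 and SLC25A5. A stretch of 60 coding bases (positions 682 to 741) around the signature of these carriers, a run of arginines followed by methionines, is shown because the paralogues differ there in bases by which their reads can be told apart. Capitals mark bases that differ from SLC25A5, 9 in SLC25A6 and 12 in SLC25A4.
SLC25A5: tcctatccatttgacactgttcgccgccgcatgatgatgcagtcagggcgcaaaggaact
SLC25A6: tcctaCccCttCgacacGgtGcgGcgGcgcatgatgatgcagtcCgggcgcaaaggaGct
SLC25A4: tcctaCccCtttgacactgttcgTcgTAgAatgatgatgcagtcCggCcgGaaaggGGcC
The stretch runs 5′ to 3′ along the coding strand and spans the border of exons 3 and 4. On GRCh38 it lies at chrX:119470456-119470513 and chrX:119470901-119470902 (plus strand) for SLC25A5, at chrX:1387279-1387336 and chrX:1386758-1386759 (minus strand) for SLC25A6 and at chr4:185145842-185145899 and chr4:185146814-185146815 (plus strand) for SLC25A4.

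SLC25A5 (ENSG00000005022, chrX:119468422-119471396) was the most abundant of the 9 genes in every library. Its CPM was 735 and 748 in shCon and 445 and 491 in shUBXN1. Both knockdown libraries were far below both controls, and the gap between the groups was wider than the distance within either. SLC25A5 thus changed by -0.66 on the log2 scale (SE 0.0814, adjusted p = 8.77e-06, edgeR), which left 63.2% of the control level. Transcripts of the antisense gene SLC25A5-AS1 cover 13.2% of its exon bases, and since it is not stated whether strand was used in counting, reads there cannot be assigned with certainty. SLC25A5-AS1 itself had 62.1 to 83.1 counts per library, against 11010 to 19582 for SLC25A5.

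SLC25A6 (ENSG00000169100) lies at chrX:1386152-1392113 in the pseudoautosomal region that X and Y share. Its CPM was 272 and 280 in shCon and 177 and 194 in shUBXN1. The groups stood apart as those of SLC25A5 did, with a change of -0.58 on the log2 scale (SE 0.0764, adjusted p = 1.84e-05, edgeR), and 67.1% of the control level was left. SLC25A6 has 60.7% GC in its longest transcript, and once the trend of counts on GC content was taken out of each library its log2 fold change was -0.87, also past the threshold.

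SLC25A4 (ENSG00000151729, chr4:185143266-185150382) was the least abundant of the 9 genes. It was at 19.1 and 19.4 CPM in shCon and at 16.5 and 18.5 CPM in shUBXN1. The shUBXN1 libraries were both lower, but the second lay close to the controls. The log2 fold change of -0.14 (95% interval -0.37 to 0.10, adjusted p = 0.307, edgeR) did not pass the threshold, and the interval does not reach the values of SLC25A5 and SLC25A6.

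Since levels of different genes can be compared only per length, the makeup of the carrier family was taken from TPM. Summed over SLC25A4, SLC25A5 and SLC25A6, carrier transcripts amounted to 1527 ± 10.6 TPM (SD, n = 2) in shCon and 1022 ± 16.9 TPM (SD, n = 2) in shUBXN1. SLC25A5 made up 74.6% and 74.4% of this sum in shCon and 73.1% and 73.2% in shUBXN1. SLC25A6 made up 24.9% and 25.1% in shCon and 26.1% and 26% in shUBXN1, and SLC25A4 0.574% and 0.572% in shCon and 0.802% and 0.818% in shUBXN1. The family thus kept its order in every library while its total fell, and the share of SLC25A4 was higher in both knockdown libraries than in the controls.

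The log2 ratio of SLC25A5 to SLC25A4 changed by -0.53 and that of SLC25A6 to SLC25A4 by -0.44 between shCon and shUBXN1, whereas that of SLC25A5 to SLC25A6 changed by -0.09. In each of these ratios the groups did not overlap. The exact permutation test over 2 against 2 libraries (two-sided) gave p = 0.333 for each, and also after adjustment over the 6 ratios of paralogues examined, which is the smallest p this design allows.

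**Figure D2:**
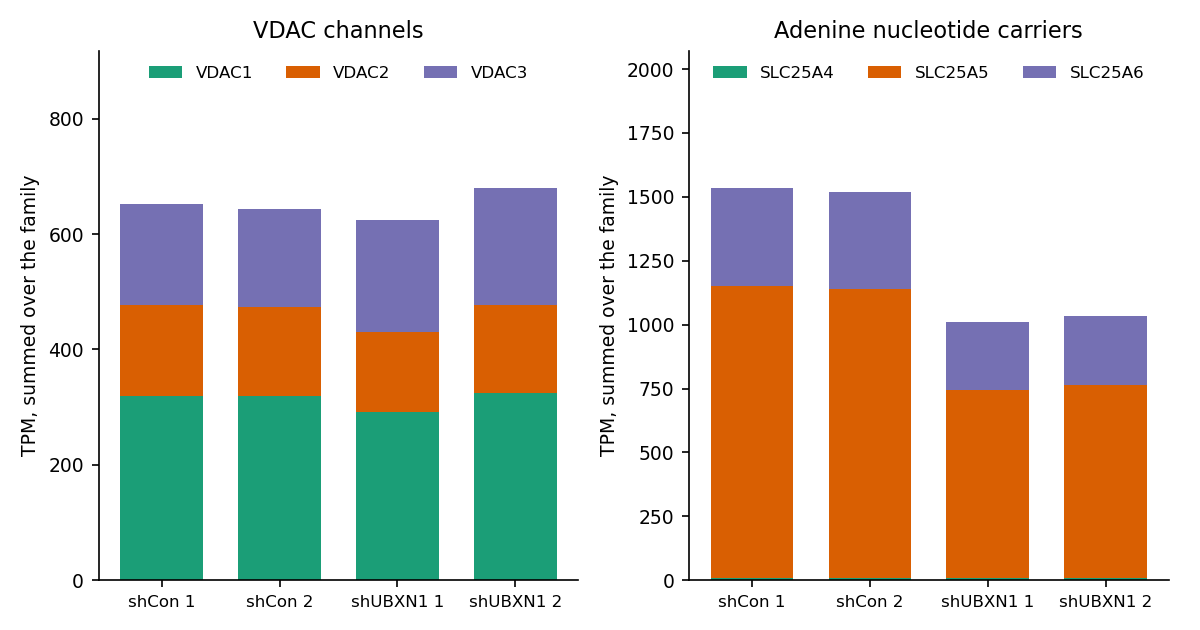
TPM summed over the VDAC channel genes (left) and over the adenine nucleotide carrier genes (right) in each library, with one colour per gene and SLC25A4 too low to be seen at this scale. The VDAC sum ranges from 625 to 680 TPM in shUBXN1 around its shCon values, while the carrier sum is 1010 and 1034 TPM in shUBXN1 and 1534 and 1519 TPM in shCon.

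The VDAC channels showed another picture, with no gene past the threshold. VDAC1 is the main form in most tissues and binds hexokinase, VDAC2 holds BAK at the outer membrane, and VDAC3 is the least studied form. The coding sequences of VDAC1 and VDAC2 were identical at 71.5% of aligned bases, those of VDAC2 and VDAC3 at 71.6% and those of VDAC1 and VDAC3 at 66.0%. Their sum was 648 ± 6.33 TPM (SD, n = 2) in shCon and 652 ± 38.8 TPM (SD, n = 2) in shUBXN1, a difference well within the spread of the knockdown libraries. The carriers summed to 2.35 and 2.36 times the VDAC total in the shCon libraries and to 1.61 and 1.52 times in the shUBXN1 libraries.

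VDAC1 (ENSG00000213585, chr5:133971871-134004975, minus strand) was at 289 and 297 CPM in shCon and at 248 and 296 CPM in shUBXN1. The second knockdown library lay between the controls and the first below them, so the groups overlapped. VDAC1 had a log2 fold change of -0.11 (95% interval -0.29 to 0.08, adjusted p = 0.313, edgeR). It depended on single libraries, with 0.01 when the first shUBXN1 library was left out and -0.24 (adjusted p = 0.0012, edgeR) when the second was left out, and adjusted p-values over all alternatives ranged from 0.0012 to 0.900.

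VDAC2 (ENSG00000165637, chr10:75210154-75231448) was at 113 and 114 CPM in shCon and at 93.8 and 111 CPM in shUBXN1. Its log2 fold change was -0.15 (95% interval -0.33 to 0.03, adjusted p = 0.139, edgeR), and it passed the threshold, with -0.28, when the second shUBXN1 library was left out (adjusted p = 0.001, with a range of 0.001 to 0.625 over the alternatives, edgeR and the other tools). Of the 50-base windows of its canonical transcript 47.0% occur word for word in the pseudogene VDAC2P5, against 21.2% of those of VDAC1 in pseudogenes and other genes and at most 4.45% for the other 7 genes. By shared windows alone, the value of VDAC2 is therefore less certain than the rest. The counts deposited for VDAC2 pseudogenes were nevertheless 0 in both shCon libraries and 1 and 2.02 in the shUBXN1 libraries. The windows leave out the Y copy of SLC25A6. How reads of that gene were assigned between X and Y is not given in the sources used here. For VDAC1, pseudogene counts came to at most 1.05% of those of the gene, and adding them left its log2 fold change at -0.11. An antisense gene covers 2.95% of the exon bases of VDAC1.

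VDAC3 (ENSG00000078668, chr8:42391624-42405937) was at 82.1 and 81.9 CPM in shCon and at 85.1 and 96.0 CPM in shUBXN1. Both knockdown libraries were higher, the first only slightly. On the log2 scale VDAC3 was at 0.14 (95% interval -0.03 to 0.31, adjusted p = 0.138, edgeR). It passed the threshold with total count scaling (0.23), with limma on log2(TPM + 1) (0.20) and without the first shUBXN1 library (0.22), and adjusted p-values over the alternatives ranged from 0.00831 to 0.537.

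Within the VDAC family the share of VDAC3 was higher and those of VDAC1 and VDAC2 were lower in both knockdown libraries. VDAC3 made up 27% and 26.5% of the VDAC TPM in shCon and 31.1% and 29.9% in shUBXN1. VDAC1 made up 49.0% and 49.6% in shCon and 46.7% and 47.7% in shUBXN1, and VDAC2 24% and 23.9% against 22.2% and 22.4%. The log2 ratio of VDAC2 to VDAC3 changed by -0.30, that of VDAC1 to VDAC3 by -0.25 and that of VDAC1 to VDAC2 by 0.04, all without overlap of the groups and with p = 0.333 in the exact permutation test, the smallest possible. Which of VDAC2 and VDAC3 was more abundant depended on the length used. The deposited length of VDAC3 is 949 bases and its canonical transcript has 1418 bases, with which VDAC3 would make up 19.8% of the family in shCon, below the 25.7% of VDAC2, and 22.9% against 24.2% in shUBXN1.

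MCU (ENSG00000156026, chr10:72692143-72887694) also fell. Its CPM was 111 and 123 in shCon and 73.9 and 78.4 in shUBXN1. The controls differed from each other by more than the knockdown libraries did, yet both were far above them. MCU changed by -0.62 on the log2 scale (SE 0.0787, adjusted p = 1.22e-05, edgeR), and 65.1% of the control level was left. With any single library omitted it stayed between -0.70 and -0.54.

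PPIF (ENSG00000108179, chr10:79347469-79355334) was the gene that rose, from 102 and 104 CPM in shCon to 114 and 127 CPM in shUBXN1. The rise came to 0.23 on the log2 scale (SE 0.0765, adjusted p = 0.0211, edgeR). The call was lost when either the first or the second shCon library was left out (0.21 and 0.24), without the second shUBXN1 library (0.15) and with the GC trend taken out (0.09, adjusted p = 0.403). Adjusted p-values ranged from 0.000416 to 0.403 over the alternatives.

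TSPO (ENSG00000100300, chr22:43151547-43163242) was at 64.5 and 65.4 CPM in shCon and at 69.0 and 70.5 CPM in shUBXN1, with both knockdown libraries slightly higher. The log2 fold change was 0.10 (95% interval -0.05 to 0.26, adjusted p = 0.251, edgeR). Its direction depended on the setting. Total count scaling gave 0.19 and limma on log2(TPM + 1) 0.16, both past the threshold, whereas taking out the GC trend gave -0.26 (adjusted p = 0.0126, with a range of 0.0126 to 0.593 over the alternatives). TSPO has 63.4% GC in its longest transcript, the highest of the 9 genes, and PPIF 53.2%.

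**Figure D3:**
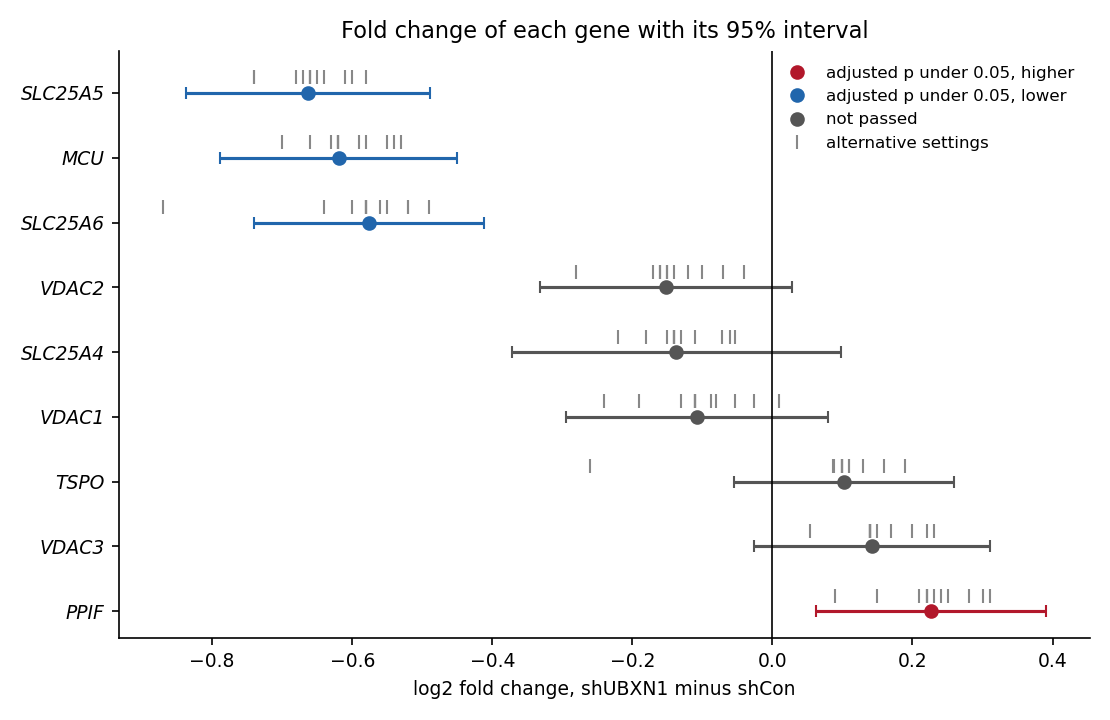
Log2 fold change (horizontal axis, shUBXN1 minus shCon) of each of the 9 genes, with points and bars for edgeR's estimate and its 95% interval and grey ticks for the same gene under each alternative setting. The ticks of SLC25A5, MCU and SLC25A6 lie between -0.87 and -0.49, while those of VDAC1 and TSPO fall on both sides of 0.

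By mean TPM the order in shCon was SLC25A5 (1137), SLC25A6 (381), VDAC1 (319), VDAC3 (173), VDAC2 (155), TSPO (136), PPIF (94.2), MCU (79.9) and SLC25A4 (8.74), and no neighbours in this order overlapped between libraries. In shUBXN1 the order was SLC25A5 (747), VDAC1 (308), SLC25A6 (266), VDAC3 (199), TSPO (153), VDAC2 (145), PPIF (115), MCU (54.2) and SLC25A4 (8.27), where the values of TSPO and VDAC2 overlapped and the other neighbours did not. VDAC1 thus moved above SLC25A6, and the distance from PPIF to MCU widened from 94.2 against 79.9 TPM to 115 against 54.2 TPM. The places of VDAC3, TSPO and VDAC2 rest on deposited lengths of 949, 955 and 1467 bases. Their canonical transcripts have 1418, 836 and 1512 bases, and with these lengths their order would differ.

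The promoters of the genes that fell are shown with that of SLC25A4, the carrier gene that did not pass, because they allow the paralogues to be compared by sequence. Promoter sequences came from RefSeq (GRCh38.p14), which held 15 start sites for 8 of the 9 genes (no entry for VDAC3), and the 250 bases before a start are printed in the direction of the gene. Capitals mark the GC box GGGCGG, the CCAAT box CCAAT and the TATA box TATAAA on either strand, with overlapping matches counted separately.
SLC25A5, chrX:119468194-119468443, plus strand: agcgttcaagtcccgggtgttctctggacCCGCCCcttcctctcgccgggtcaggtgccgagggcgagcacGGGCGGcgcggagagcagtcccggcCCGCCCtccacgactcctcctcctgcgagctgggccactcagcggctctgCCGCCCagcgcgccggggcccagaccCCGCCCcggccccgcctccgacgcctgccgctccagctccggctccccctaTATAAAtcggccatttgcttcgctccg
SLC25A6, chrX:1392114-1392363, minus strand: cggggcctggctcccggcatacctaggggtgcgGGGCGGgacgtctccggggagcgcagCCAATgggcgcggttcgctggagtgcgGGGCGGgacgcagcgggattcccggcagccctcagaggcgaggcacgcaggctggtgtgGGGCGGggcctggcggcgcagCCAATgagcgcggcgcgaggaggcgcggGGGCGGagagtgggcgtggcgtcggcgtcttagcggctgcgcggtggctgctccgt
MCU, first start, chr10:72691893-72692142, plus strand: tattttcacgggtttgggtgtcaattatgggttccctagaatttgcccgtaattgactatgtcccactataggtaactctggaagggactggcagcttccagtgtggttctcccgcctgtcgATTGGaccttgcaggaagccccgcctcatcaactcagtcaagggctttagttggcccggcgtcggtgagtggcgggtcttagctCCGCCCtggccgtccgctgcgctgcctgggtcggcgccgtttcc
SLC25A4, chr4:185143016-185143265, plus strand: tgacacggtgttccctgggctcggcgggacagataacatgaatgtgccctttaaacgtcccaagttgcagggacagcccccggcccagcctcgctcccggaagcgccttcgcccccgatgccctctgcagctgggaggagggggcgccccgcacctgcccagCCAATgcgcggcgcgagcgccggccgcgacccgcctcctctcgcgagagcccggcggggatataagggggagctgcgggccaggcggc
The stretch of SLC25A5 holds 5 GC boxes and 1 TATA box, that of SLC25A6 4 GC boxes and 2 CCAAT boxes, that of the first MCU start 1 GC box and 1 CCAAT box, and that of SLC25A4 1 CCAAT box and no GC box. MCU has a second RefSeq start, whose 250 bases (chr10:72692613-72692862, not printed) hold 2 GC boxes and no CCAAT box.

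Over windows that also took in the 50 bases after the start, GGGCGG was present in 45.0% of 35116 windows of all genes and in windows of SLC25A5, SLC25A6, MCU, TSPO, VDAC1 and VDAC2. CCAAT was present in 34.6% of all windows and in windows of SLC25A4, SLC25A6, MCU, PPIF and VDAC1, and TATAAA in 11.5% of all windows and, among the 8 genes, in that of SLC25A5. The E-box CACGTG (7.3% of all windows) occurred in VDAC2 and the ETS motif CCGGAAG (10.3%) in SLC25A4, VDAC1 and VDAC2. None of the motifs was shared by the genes that fell and absent from the others. These matches are descriptions of the letters and were not tested for binding.

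The genes whose profile over the 4 libraries was most like that of SLC25A5, by Euclidean distance of centred log2 CPM over 6251 genes whose log2 CPM averaged above 5, were TMEM184A (distance 0.00599), GLUD1 (0.0180) and CSTF2 (0.0241). Their log2 fold changes were -0.67, -0.66 and -0.67. Such a distance over 4 libraries describes the size of the change and the spread within groups and nothing more.

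Genes that work beside these 9 were examined in 7 lists. Percentages are of the genes tested in a list. They stand beside 28.0% called higher and 28.2% called lower over all genes tested, whose median log2 fold change was 0.016. No list was tested against these shares. The calcium handling list covers the partners of MCU and the exchangers of the inner membrane. Of its 11 genes tested (of 13), 2 were higher (18.2%), 4 were lower (36.4%) and 5 did not pass. Their median log2 fold change was -0.07. SLC8B1, the sodium and calcium exchanger that releases calcium from the matrix, rose from 23 and 21.9 CPM to 40.9 and 44.8 CPM (log2 fold change 0.93, adjusted p = 8.89e-07, edgeR). TMEM65, an inner membrane protein that regulates this exchanger, was also higher (0.33), MCUR1, a regulator of the uniporter, was lower (-0.52), and GHITM, the most abundant gene of the list, was at 0.06 with overlapping groups. An antisense gene covers 16.7% of the exon bases of GHITM.

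Against MCUB and SMDT1, MCU was lower in each knockdown library. The TPM ratio of MCU to MCUB, its dominant-negative paralogue, was 9.80 and 13.6 in shCon and 6.71 and 6.09 in shUBXN1, and that of MCU to SMDT1, which encodes the linker EMRE, was 8.50 and 8.11 against 5.73 and 5.58. MCUB and SMDT1 were chosen as partners by name and not by the rule for named genes.

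Proteins that import and assemble beta-barrels such as VDAC form the list of 14 outer membrane genes, all tested. Here 1 was higher (7.14%), 6 were lower (42.9%) and 7 did not pass, with a median of -0.11. TOMM5, a small subunit of the import pore, fell from 140 and 155 CPM to 56.8 and 59.1 CPM (log2 fold change -1.35, adjusted p = 6.26e-09, edgeR). TOMM40, the import pore itself, was at -0.65 and TOMM70, the receptor on which carrier precursors dock, at -0.63, both past the threshold. On the same strand ENSG00000255872 shares 14.4% of the exon bases of TOMM5 and ENSG00000256966 shares 9.43%.

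Of the other SLC25 carriers 39 of 48 genes were tested. Of these, 11 were higher (28.2%), 7 lower (17.95%) and 21 did not pass, with a median of 0.05. SLC25A37 and SLC25A51, which carry iron and NAD into mitochondria, had log2 fold changes of 0.97 and 0.99, and SLC25A29, a carrier of basic amino acids, had 0.84. SLC25A3, the phosphate carrier that works beside the adenine nucleotide carriers in ATP synthesis, was the most abundant at 644 and 658 CPM in shCon and 602 and 688 CPM in shUBXN1, with overlapping groups and a log2 fold change of -0.01 (adjusted p = 0.906, edgeR). The TPM ratio of SLC25A5 to SLC25A3 was 5.22 and 5.21 in shCon and 3.38 and 3.27 in shUBXN1.

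Kinases that use the nucleotides passed by VDAC and the carriers numbered 15 tested of 20. Of these, 6 were higher (40%), 2 lower (13.3%) and 7 did not pass, with a median of 0.18. CKB, the brain form of creatine kinase, rose from 15.2 and 10.8 CPM to 42.9 and 39.0 CPM (log2 fold change 1.65, adjusted p = 1.18e-07, edgeR). AK1, the cytosolic adenylate kinase, was also higher, at 0.69 and past the threshold. NME2, a nucleoside diphosphate kinase and the most abundant of the list, was at 0.18 and did not pass in the test used (adjusted p = 0.0598, with a range of 0.00146 to 0.472 over the alternatives), and without the GC trend at -0.11. Overlapping genes on the same strand share 34.5% of the exon bases of AK1 and 24.2% of those of NME2, which are uncertain for that reason.

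Cyclophilins other than PPIF, all 16 tested, had 1 gene higher (6.25%), 9 lower (56.25%) and 6 not passed, with a median of -0.25. PPIL1 (-0.80) and PPIL2 (-0.59), components of the spliceosome, were lower, and PPIC, a cyclophilin of the secretory pathway, was higher (1.07). PPIA, the abundant cytosolic cyclophilin, was at 1596 and 1651 CPM in shCon and 1670 and 1800 CPM in shUBXN1 and did not pass (0.10, adjusted p = 0.373, edgeR). PPIL2 shares 17.8% of its exon bases with YPEL1 on the opposite strand.

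Of the TSPO partners and steroid synthesis genes 11 of 17 were tested. Here 2 were higher (18.2%), 5 lower (45.45%) and 4 did not pass, with a median of -0.05. CYP27A1, the mitochondrial sterol 27-hydroxylase, fell from 71.1 and 77.1 CPM to 23.2 and 22.4 CPM (log2 fold change -1.70, adjusted p = 1.40e-09, edgeR). ATAD3A, an inner membrane ATPase that is nearly identical in parts to ATAD3B, was at -0.66, the cholesterol transporter STARD3 at -0.45 and DBI, the acyl-CoA binding protein that is a ligand of TSPO, at -0.31, all past the threshold.

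The permeability pore candidates, which include subunits of the ATP synthase and BCL2 family proteins that act at VDAC, had 15 of 16 genes tested. Here 2 were higher (13.3%), 6 lower (40%) and 7 did not pass, with a median of -0.02. The transcript of BAX, which permeabilizes the outer membrane, fell from 68.3 and 80.7 CPM to 44 and 50.6 CPM (log2 fold change -0.65, adjusted p = 4.22e-05, edgeR). The paper reports the other direction for BAX protein, which was increased by western blot in UBXN1-knockdown HCC cells, MHCC97H among them. Why transcript and protein differ was not tested. ATP5MC2, a gene for the c subunit of the ATP synthase, was at -0.53 and TRAP1, a mitochondrial chaperone that binds cyclophilin D, at -0.50, both past the threshold. ATP5F1B, the catalytic beta subunit, was the most abundant and had overlapping groups (-0.02, adjusted p = 0.878, edgeR). DNASE1 covers 28.5% of the exon bases of TRAP1 on the opposite strand.

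**Figure D4:**
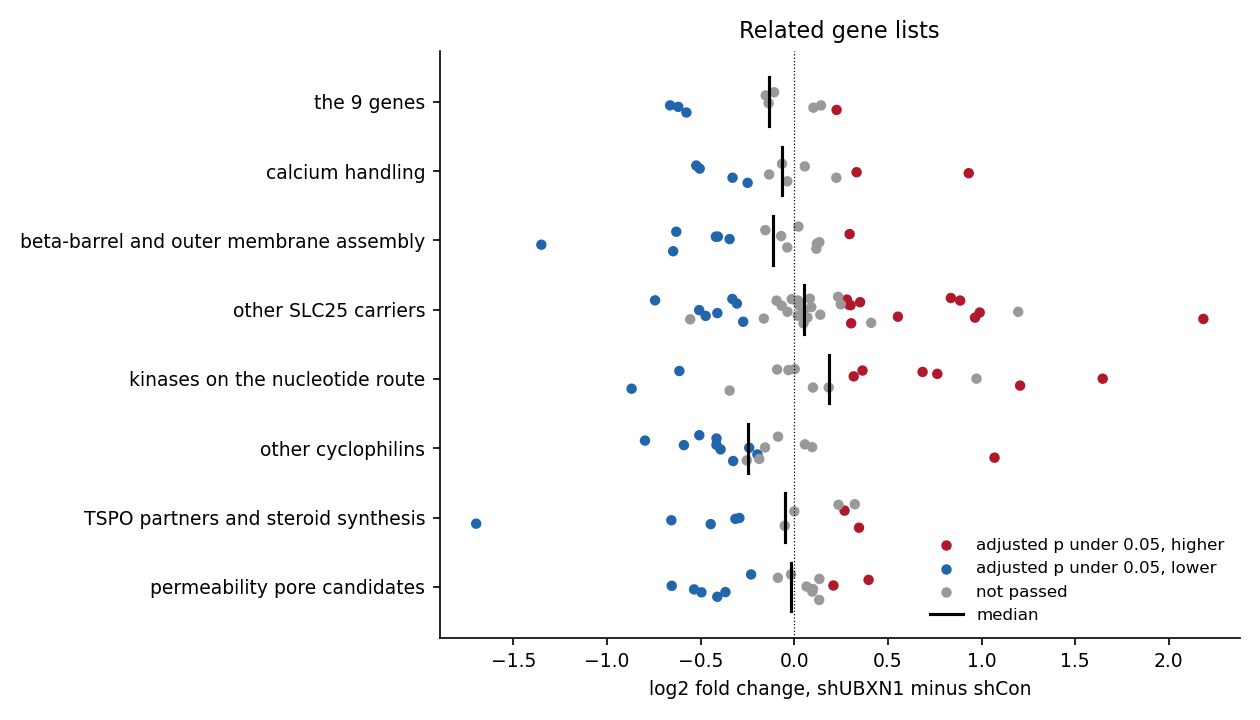
Log2 fold change (horizontal axis, shUBXN1 minus shCon) of every tested gene of the 9 genes and of the 7 related lists, coloured by whether it passed an adjusted p of 0.05 and in which direction, with the median of each list as a black bar. Medians range from -0.25 (other cyclophilins) to 0.18 (kinases), and every list holds genes called in both directions.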

How the data were processed

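RNA-seq was done on 4 MHCC97H libraries. Per the study's methods, the authors made paired-end Illumina reads and mapped them to GRCh38 with HISAT2, whereas the submitters' processing notes name GRCh37, HISAT2 2.0.4 and StringTie 1.3.0. The kit is TruSeq in the methods and another mRNA kit per the labels. The authors deposited expected counts per gene, not normalized, with a gene length. The counting tool, the annotation release and the use of strand are not given in the sources used here.

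Counts were rounded, filtered with filterByExpr, scaled with TMM and tested with edgeR 4.0.16 (glmQLFit and glmQLFTest, R 4.3.3) over 16863 genes, with no covariate. The biological coefficient of variation was 0.0711. A gene was called at a Benjamini-Hochberg adjusted p under 0.05, or at an unadjusted p under 0.05 with a fold change of 2 or more, as in the study's methods. TPM was computed from counts and deposited lengths. Symbols matched 99.7% of gene IDs, and positions came from GENCODE v44 (GRCh38). The genes named were the 9 genes, UBXN1, in each list the 3 with the smallest p past the threshold and the most abundant gene, and the 3 profiles nearest to that of the gene with the largest change, and some genes that the rule names are not reported here.

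The 9 genes and all lists were chosen with earlier results of these data known. The test was first tried on simulated counts with known changes. Alternatives were DESeq2 1.42.0, total count scaling, limma-voom and limma 3.58.1 on log2(TPM + 1), other filters, a replicate block, each library left out, pseudogene counts added, shares from CPM and, chosen after seeing the data, removal of the GC trend and canonical transcript lengths. Where 1 library of a group was left, it was assumed to vary like the other group. Counts of replicates differed by more than sampling noise (chi-square per degree of freedom 3.75 in shCon and 8.34 in shUBXN1). The total of 23373700 to 27380508 counts per library sets the counting precision.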

Additional observations from a re-analysis of the deposited data

How the results depend on the processing

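SLC25A5, SLC25A6 and MCU kept their direction and passed the threshold under every alternative run, between -0.87 and -0.49 on the log2 scale. The cause of each change named here was not tested. VDAC1 was at -0.24 to 0.01 with each library left out (past the threshold at -0.24), VDAC2 at -0.28 to -0.041 (past it at -0.28), VDAC3 at 0.053 to 0.22 (past it at 0.22) and PPIF at 0.15 to 0.30 (lost at 0.21, 0.24 and 0.15). With total count scaling VDAC3 was at 0.23 and TSPO at 0.19, with limma on log2(TPM + 1) at 0.20 and 0.16, and after GC removal PPIF was at 0.09 and TSPO at -0.26.

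Of the 9 genes, 3 were higher and 3 lower with total count scaling and also with limma on log2(TPM + 1). After GC removal none was higher and 4 were lower. Calls over all genes tested moved as well, from 4727 higher and 4751 lower in the test used. They became 5324 and 3969 with total count scaling, 4742 and 3998 with limma on log2(TPM + 1), and 3968 and 5385 after GC removal. At a fold change of 2, 1997 genes were higher and 1027 lower. These became 1028 and 524 with limma on log2(TPM + 1), 1321 higher with at least 10 counts in every library, and 1717 higher and 1371 lower after GC removal. The log2 median over all genes tested was 0.016, against 0.10 with total count scaling and -0.06 after GC removal.

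Lists were counted again. With total count scaling 3 beta-barrel genes, 2 cyclophilins and 6 pore candidates were higher, and with limma on log2(TPM + 1) 2, 2 and 5. With DESeq2 7 other SLC25 carriers and 1 TSPO partner were higher, and after GC removal 0 beta-barrel genes. With a library left out, 2 to 4 calcium genes were lower, 0 to 1 beta-barrel genes higher, 7 to 11 other SLC25 carriers higher, 3 to 6 kinases higher, 1 to 2 cyclophilins higher and 5 to 9 lower, 1 to 2 TSPO partners higher and 2 to 5 lower, and 1 to 3 pore candidates higher.

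Genes near 0 changed sign. With each library left out GHITM ranged from -0.016 to 0.12, SLC25A3 from -0.11 to 0.074 and ATP5F1B from -0.11 to 0.062. With total count scaling SLC25A3 was at 0.069 and ATP5F1B at 0.066, with limma on log2(TPM + 1) at 0.042 and 0.039, and with at least 10 counts at 0.014 and 0.0099. Without the second shCon library they were at 0.0013 and 0.0045, and NME2 after GC removal at -0.11. STARD3 and DBI lost their calls without the second shCon library (-0.31 each). Taken from CPM in place of TPM, the share changed by -1.25 points for VDAC2, 2.73 for VDAC3, 0.752 for SLC25A4 and -1.73 for SLC25A5, and with canonical lengths by -1.50 for VDAC2.

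Replicate numbers are shared by the groups, but no source used here says that they mark a common batch. Deviations of same-numbered libraries correlated at 0.133, which over only 2 pairs cannot tell whether such a batch exists. With a replicate block 5000 genes were higher and 5023 lower, and 1 of the 9 genes was higher and 3 were lower, as without it. For PPIF the block gave 0.22 with an adjusted p of 0.0069, and NME2 passed at 0.18 (adjusted p = 0.0353, edgeR).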
